A study of Mus musculus with 4 samples.

Results

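m6A-seq was performed in mouse c-Kit+ cells to find which transcripts carry N6-methyladenosine (m6A), and 10 genes of TNF receptor and NF-κB signalling are described here. They are the receptors Tnfrsf1a and Tnfrsf1b, the NF-κB subunits Nfkb1, Nfkb2, Rela, Relb and Rel, and the inhibitors Nfkbia, Nfkbie and Tnfaip3. The genes were chosen by name for their place in the pathway, with earlier results of these data known. A peak was given to 1 of them when its summit lay in a GENCODE M21 exon of that gene. This held for 8 of the 15635 peaks of IP replicate 1 and 10 of the 14872 peaks of IP replicate 2. All 10 genes were found among the 55450 genes of the annotation. In m6A-seq, RNA fragments that carry the mark are pulled down with an antibody, and a peak is a stretch where the immunoprecipitated (IP) reads exceed a local background.

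Both m6A IP samples came from foetal liver cells of the C57BL/6 background that were enriched for Kit with magnetic beads, and each has an input sample of the same cells that was not analysed here. The labels give total RNA for the IP samples and polyA RNA for the input. The study's methods call the cells Ythdf2 CTL, meaning Ythdf2 fl/fl mice without Cre, in which GFP is fused to the start of YTHDF2 and the protein remains functional. The age of the foetuses and any pooling of animals are not given in the sources used here. There was thus 1 group with 2 biological replicates, no Ythdf2-deficient sample, and no second condition to test against. A peak needs both methylation and enough RNA, and fewer cells of a type cannot be told apart from less RNA per cell.

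TNF binds its receptors at the cell surface, and adaptors and ubiquitin ligases gathered there switch on the IκB kinase complex. That kinase marks the IκB inhibitors for destruction, which frees dimers of the NF-κB subunits to enter the nucleus and turn on inflammatory and survival genes, including genes for their own inhibitors. In blood stem and progenitor cells the pathway is known for driving emergency myeloid output. m6A is placed mostly within the DRACH consensus (A, G or T, then A or G, then AC, then A, C or T), of which GGAC is the strongest core, and YTHDF2 binds the mark and speeds the decay of the transcript.

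The sequences below show a candidate methylation context under each peak of the 7 genes that had one on their main transcript. Each line gives the GGAC followed by A, C or T that lay nearest to the middle of the replicate summits and inside the peaks, read 5′ to 3′ along the transcript from GRCm38. Capitals mark the pentamer, whose central base is the candidate methylated A. For Rel no such match lay in both peaks, and the nearest DRACH match is shown. A match describes the sequence and does not locate the modified base, which peaks of this width cannot do.
Tnfrsf1a, chr6:125362026-125362050 (+ strand): tgaacttcaaGGACCattctgctag
Tnfrsf1b at the stop codon, chr4:145215744-145215768 (− strand): ccctgcaaagGGACCcccgagaccc
Tnfrsf1b in the 3′ UTR, chr4:145214641-145214665 (− strand): tcaagatactGGACActtggggccg
Nfkb1, chr3:135585364-135585388 (− strand): tgggcaggaaGGACCtattgaaggc
Rela, chr19:5647370-5647394 (+ strand): ttgcggacatGGACTtctctgctct
Rel, chr11:23742662-23742686 (− strand): tgtcaccaacTGACTtatacagtat
Nfkbia (replicate 2), chr12:55492486-55492510 (− strand): ggcacggccaGGACTgggccatgga
Tnfaip3 in the coding sequence, chr10:19004724-19004748 (− strand): tgtttcaaaaGGACTacagcagagc
Tnfaip3 at the stop codon, chr10:19002614-19002638 (− strand): gtaggccctgGGACAgtggcttcaa

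Of the 10 genes, 6 had an exonic summit in both replicates (Tnfrsf1a, Tnfrsf1b, Nfkb1, Rela, Rel and Tnfaip3), beside 30.9% of all 21951 protein-coding genes. Nfkb2 and Nfkbia had one in replicate 2 only, and Relb and Nfkbie had none. The Nfkb2 summit also lay in an exon of another gene and cannot be given to either. It is included in the gene counts of replicate 2 and of either replicate given here. In replicate 1 this was 6 of 10 genes beside 34.4% of protein-coding genes, and in replicate 2 it was 8 of 10 beside 33.5%. The background includes genes that these cells may not express, which a peak list cannot show. Of all protein-coding genes with a summit in either replicate 83.3% had it in both, and of the genes described here it was 6 of 8. All 8 placed peaks of replicate 1 and 8 of 9 of replicate 2 overlapped a peak of the other replicate, beside 85.5% and 87.7% of all peaks placed on a transcript. A second peak was called in Tnfrsf1b and Tnfaip3 in each replicate, or 2 of 6 genes and 2 of 8, where 40.4% and 39.8% of all protein-coding genes with a peak had more than 1.

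**Figure D1:**
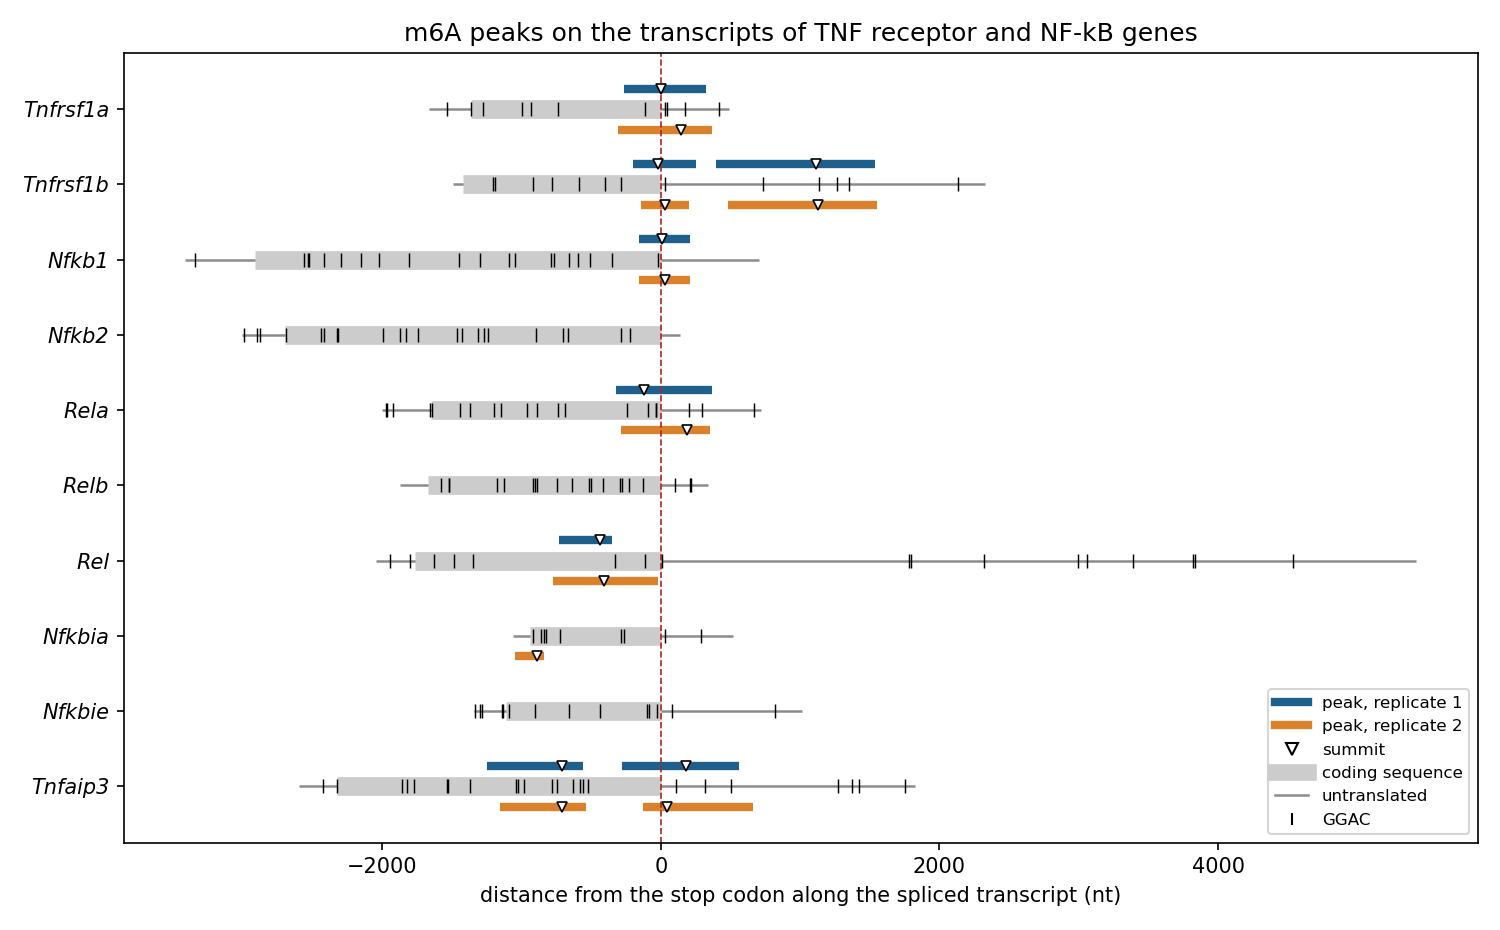
Peaks on the chosen transcript of each of the 10 genes, by distance from the stop codon along the spliced transcript (nt). Thick grey is coding sequence, thin grey untranslated, ticks are GGAC, and bars are peaks of replicate 1 (blue, above) and replicate 2 (orange, below) with a triangle at the summit. A summit lay within 200 nt of the stop codon in each replicate in Tnfrsf1a, Tnfrsf1b, Nfkb1, Rela and Tnfaip3. Tnfrsf1b and Tnfaip3 also had a summit farther away in each replicate. Relb and Nfkbie carry GGAC but no peak. The peak given to Nfkb2 lies on another transcript and is not drawn.

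Both TNF receptors had peaks in both replicates, 1 in Tnfrsf1a and 2 in Tnfrsf1b. Tnfrsf1a encodes the death-domain receptor that most cells carry (chr6:125349362-125362484, + strand). Its single peak lay in the last of 10 exons, chr6:125361726-125362313 in replicate 1 and chr6:125361675-125362357 in replicate 2. Fold enrichment, which divides the IP reads at the summit by those of the background there, scaled for depth and with 1 added to each, was 5.92 in replicate 1 and 5.71 in replicate 2. By −log10 q, the peak caller's measure of significance, the peak stood above 90.8% and 90.9% of all exonic peaks. The enrichment thus nearly coincided, but the summits lay 143 nt apart, at 4 and 147 nt past the first base of the stop codon. As recovered from the fold enrichment and the p-value, the peaks rested on 98 IP reads (95% Poisson interval 79.6 to 119) and 101 (82.3 to 123). The background was 18 and 16 control reads. Control reads here and below stand for the recovered local background in units of reads, which is not always a whole number.

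Tnfrsf1b encodes the other TNF receptor, which lacks a death domain and is found mainly on blood and endothelial cells (chr4:145213463-145246870, − strand). Both of its peaks lay in the last exon, whose 2638 nt exceed the last exon of 80.4% of protein-coding genes. The peak in the 3′ UTR, chr4:145214255-145215392 in replicate 1 and chr4:145214237-145215310 in replicate 2, had 112 and 95 IP reads at its summit. By −log10 q, 58.4 and 49.3, it stood above 98.8% and 97.0% of all exonic peaks of its replicate, the highest rank among the 10 genes. Its summits were 15 nt apart, 1116 and 1131 nt past the stop codon, and the GGACA shown above lay 20 and 5 nt downstream of them. The peak at the stop codon, chr4:145215536-145215989 and chr4:145215586-145215934, had 5.32-fold and 6.58-fold enrichment. In replicate 2 the A of the only GGAC within 200 nt of the stop codon was the summit base itself, and in replicate 1 it was 56 nt downstream. In each replicate the 3′ UTR peak exceeded the stop codon peak, 8.01 against 5.32 in replicate 1 and 8.46 against 6.58 in replicate 2.

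Among the NF-κB subunits, Nfkb1 and Rela had peaks of low fold enrichment on many reads, Rel had a more enriched peak on few reads, Nfkb2 had an uncertain one, and Relb had none. Nfkb1, which encodes the precursor of a DNA-binding subunit that lacks a transactivation domain (chr3:135584655-135691547, − strand), had 2.76-fold enrichment in replicate 1 and 2.30-fold in replicate 2. The peaks, chr3:135585148-135585607 and chr3:135585145-135585585, lay at the stop codon in exon 25 of 25, with summits 17 nt apart. They rested on 108 and 110 IP reads over backgrounds of 44 and 45 control reads, so that more reads than in Tnfrsf1a gave a lower ratio. In replicate 1 only 20.7% of exonic peaks had a lower fold enrichment, and in replicate 2 fewer still. The transcript holds 20 GGAC, and 1 of them lay under a peak, that in the last exon.

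Rela encodes the main transactivating subunit (chr19:5637483-5648130, + strand). Its peak in the last of 11 exons, chr19:5647091-5647780 and chr19:5647131-5647766, had 2.75-fold and 3.34-fold enrichment, with −log10 q of 18.0 and 24.3. IP reads numbered 117 and 124, over 48 and 34.6 control reads. The summits fell on opposite sides of the stop codon, at −121 nt in replicate 1 and 191 nt in replicate 2, although 92.2% and 100% of the peak was covered by that of the other replicate. Of 20 GGAC in the transcript, 6 lay under the peaks.

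Rel encodes c-Rel, a subunit used mainly in blood cells (chr11:23736847-23770970, − strand). Its peak was 5.82-fold enriched in replicate 1 and 8.67-fold in replicate 2, on 15 IP reads (8.40 to 24.7) and 19 (11.4 to 29.7). These are the fewest reads of any peak found in both replicates among the 10 genes. It lay in the coding part of the last exon, chr11:23742615-23743001 in replicate 1 and chr11:23742287-23743038 in replicate 2, with summits at −438 and −411 nt from the stop codon. The last exon is 6194 nt long, longer than that of 97.7% of protein-coding genes. The 3′ UTR makes up 5418 of the 7466 nt of the transcript and held no summit.

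Nfkb2 encodes the precursor subunit of the non-canonical arm of the pathway (chr19:46304320-46312385, + strand). In replicate 2 a peak of 7.94-fold enrichment, chr19:46304512-46304723, had its summit in the first exon of an alternative transcript, at −249 nt from the start codon, on 34 IP reads over 3.2 control reads. The same base is exonic in AC114539.1, a long noncoding RNA transcribed the other way from the shared promoter. The peak holds 0 GGAC and 3 DRACH matches on the Nfkb2 strand, and 5 of each on the AC114539.1 strand. The lists carry no strand, so the peak cannot be given to either gene. Replicate 1 had a single wider peak there, chr19:46304035-46304805, of 3.14-fold enrichment, which covers the replicate 2 peak but has its summit 505 nt from that of the latter and outside the Nfkb2 exon. Its summit lay 23 nt from that of another replicate 2 peak, chr19:46304042-46304375, of 2.36-fold enrichment, whose summit was likewise in AC114539.1 only. When any overlap of a peak with an exon was counted, Nfkb2 had a peak in both replicates. No other summit lay in an exon of Nfkb2, although its main transcript holds 22 GGAC, a density above that of 91.0% of genes.

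Of the inhibitors, Tnfaip3 had peaks in both replicates, Nfkbia in 1 and Nfkbie in neither. Tnfaip3 encodes a ubiquitin-editing enzyme that is induced by NF-κB and shuts the receptor complex down (chr10:19000910-19015657, − strand). It had 2 peaks in each replicate, and the one at the stop codon had the highest mean fold enrichment of any peak of the 10 genes. That peak, chr10:19002174-19003068 and chr10:19002071-19002858, was enriched 8.40-fold in replicate 1 (25 IP reads) and 11.1-fold in replicate 2 (34 IP reads). Its summits were 139 nt apart, at 183 and 44 nt past the stop codon. The other peak lay in the coding sequence of exon 7 of 9, an internal exon of 875 nt, at chr10:19004554-19005241 and chr10:19004530-19005143. It was enriched 7.12-fold (31 IP reads) and 5.72-fold (23 IP reads), and its summits were 4 nt apart. The transcript holds 24 GGAC, the most of any of the 10 genes, and 11 of them lay under these peaks.

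Nfkbia encodes IκBα, the IκB protein that is destroyed and remade most rapidly (chr12:55489410-55492647, − strand). Its only peak was called in replicate 2, chr12:55492422-55492629, with 6.99-fold enrichment, −log10 q of 10.2 and 21 IP reads (13.0 to 32.1) over 2 control reads. The summit lay 51 nt past the start of the coding sequence in the first exon, and the A of the GGACT shown above lay 23 nt upstream of it. No peak of replicate 1 overlapped it. Nfkbie, which encodes IκBε, had no exonic peak in either replicate.

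The 8 peaks found in both replicates were compared by fold enrichment. Replicate 2 was higher in 5 of 8, and the log2 ratio of replicate 2 to replicate 1 ranged from −0.32 (Tnfaip3, coding) to 0.57 (Rel). Across 11524 one-to-one pairs of peaks in the whole lists the SD of that ratio was 0.47, and 7 of the 8 lay within it. Rel lay just past it, on IP reads whose intervals overlapped. In order of the mean, Tnfaip3 at the stop codon came first, at 9.76 ± 1.92 (SD, n = 2), followed by the 3′ UTR of Tnfrsf1b at 8.24 ± 0.319 and Rel at 7.25 ± 2.01. The coding peak of Tnfaip3 (6.42 ± 0.989), the stop codon of Tnfrsf1b (5.95 ± 0.892) and Tnfrsf1a (5.82 ± 0.147) came next. The replicate ranges of neighbours in this order overlapped down to Tnfrsf1a, so the order of neighbours is not resolved. The first 2 peaks did not overlap the coding peak of Tnfaip3, the stop codon of Tnfrsf1b or Tnfrsf1a. Rela (3.05 ± 0.42) and Nfkb1 (2.53 ± 0.33) overlapped each other but not the 6 peaks above them.

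**Figure D2:**
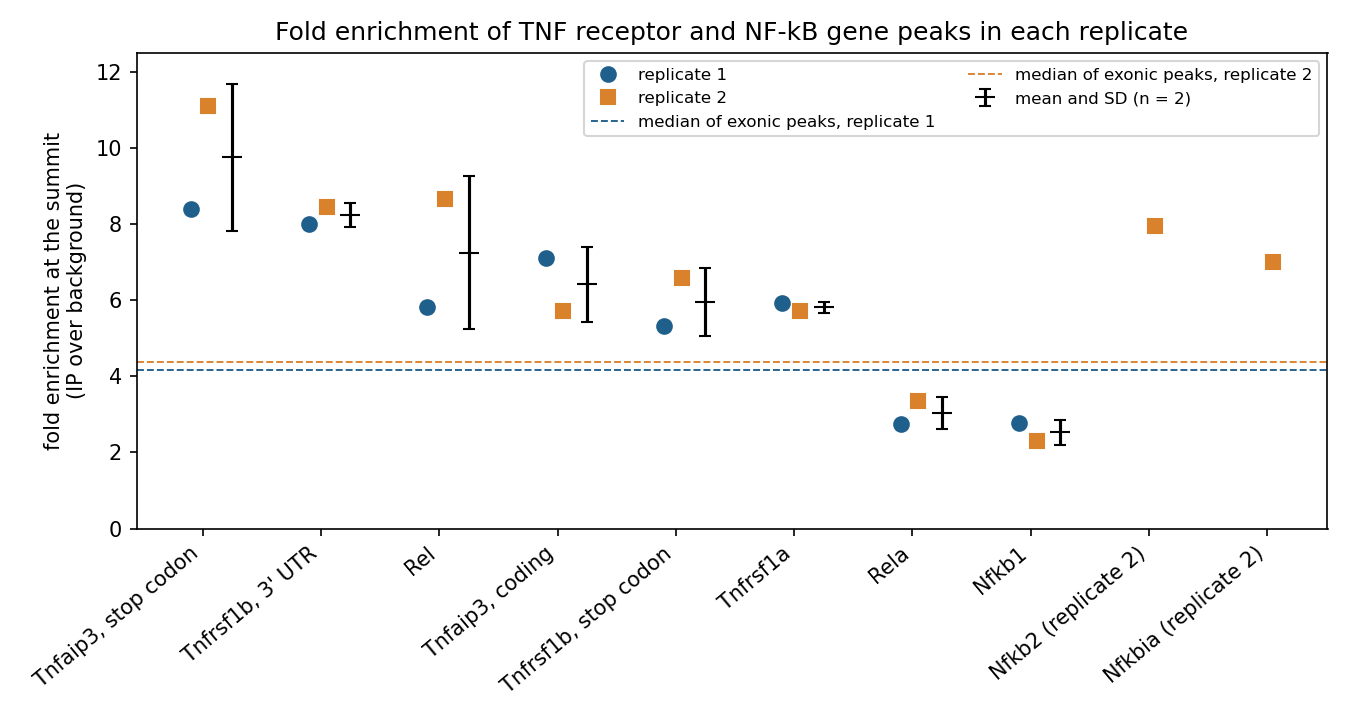
Fold enrichment at the summit for each peak of the TNF receptor and NF-κB genes, with circles for replicate 1, squares for replicate 2, and bars for mean ± SD (n = 2). Dashed lines are the medians of all exonic peaks, 4.18 in replicate 1 and 4.39 in replicate 2. Both replicates of Rela and Nfkb1 lie below these lines and all other peaks above them.

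The median fold enrichment of the peaks of the 10 genes was 5.87 in replicate 1 and 6.79 in replicate 2, beside 4.18 and 4.39 for all exonic peaks. The replicate 2 value includes the uncertain Nfkb2 peak. Dropping summits in exons of more than 1 gene changed the mean of the replicate medians from 6.33 to 6.23. The reads behind the peaks of the 10 genes spanned a wide range. Replicate 1 had 15 to 117 IP reads at the summit over 2 to 48 control reads, and replicate 2 had 19 to 124 over 1.2 to 45. The genes differed in that background. Nfkb1 and Rela had at least 34.6 control reads in either replicate, the TNF receptors 9.8 to 18, and Rel, Nfkbia, Nfkb2 and Tnfaip3 at most 4. For these last 4 genes the fold enrichment carries the counting error of a small background as well as that of the IP.

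**Figure D3:**
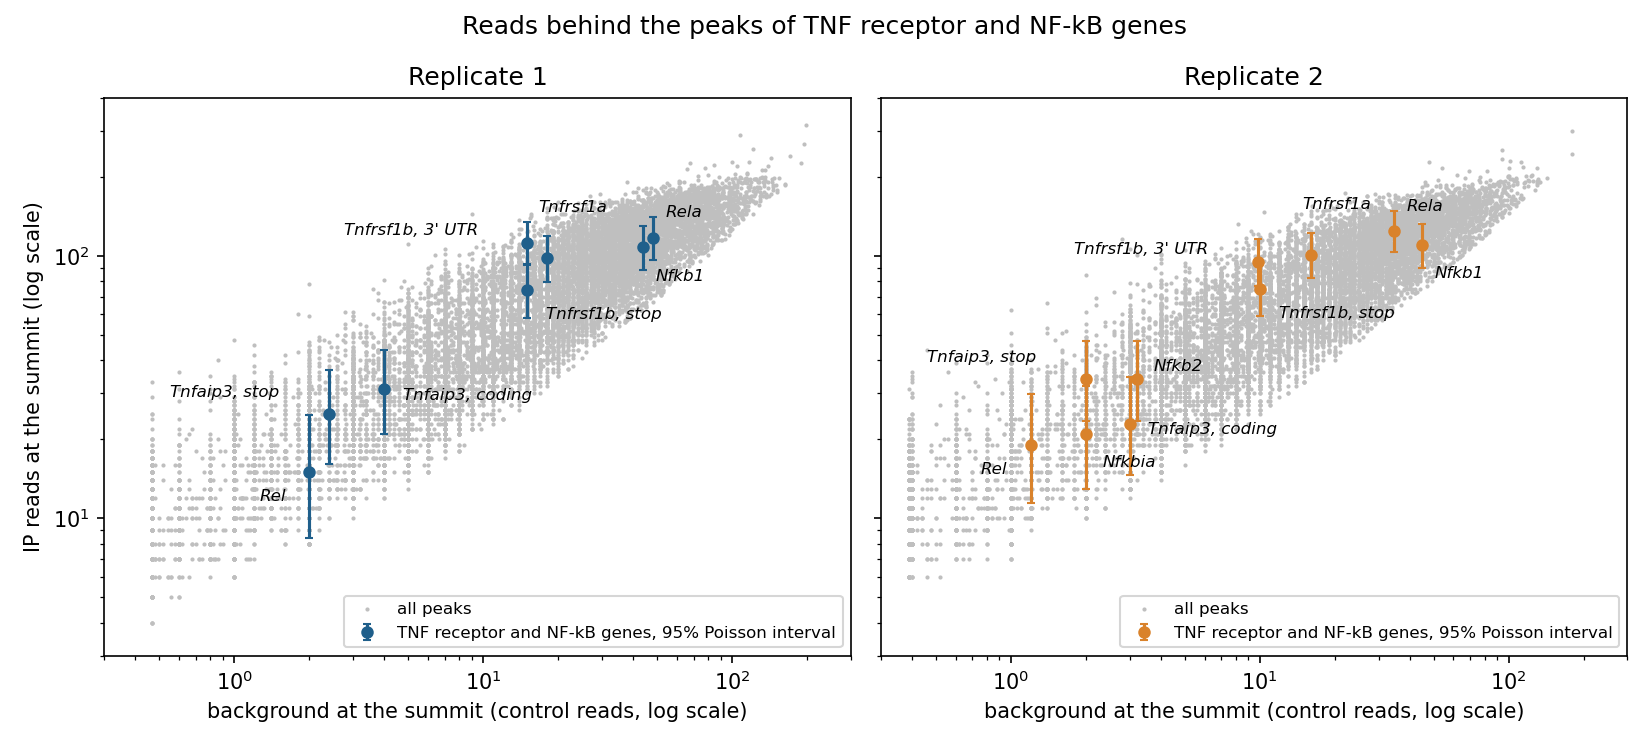
IP reads against background (control reads) at the summit, both on log axes, for all peaks (grey) and for peaks of the TNF receptor and NF-κB genes (coloured, bars are 95% Poisson intervals of the IP reads). Rel, Tnfaip3, Nfkb2 and Nfkbia sit at 4 control reads or fewer, the receptors at 9.8 to 18, and Nfkb1 and Rela at 34.6 to 48.

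Positions on the transcript were then compared with those of all summits placed on 1 protein-coding gene. Within 200 nt of the stop codon lay 5 of the 8 summits of replicate 1 and 5 of the 9 of replicate 2, beside 30.7% and 29.8% of all placed summits. These 5 were Tnfrsf1a, Tnfrsf1b, Nfkb1, Rela and Tnfaip3 in each replicate. The rest of the coding sequence held 2 in each (Rel and Tnfaip3), beside 34.0% and 33.8%, and the rest of the 3′ UTR held 1 in each (Tnfrsf1b), beside 17.2% and 17.5%. The start codon held 0 and 1 (Nfkbia), beside 14.7% and 15.4%, and no summit on a main transcript lay in the 5′ UTR, beside 3.49% and 3.51%. The last exon held 7 of 8 and 7 of 9, beside 61.6% and 61.1%. All 8 and 8 of 9 lay in an exon of at least 400 nt, beside 86.7% and 86.8%, the exception being Nfkbia with a first exon of 348 nt. With under 10 summits a replicate, of which some share a gene, these counts describe the genes and were not tested.

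On the transcript strand, 5 of 8 summits of replicate 1 and 7 of 9 of replicate 2 had a GGAC no more than 50 nt away, beside 56.1% and 56.0% of all placed summits. With so few summits these counts are not far from the background. DRACH, of which GGAC followed by A, C or T is one form, lay near all 8 and all 9, beside 93.3% in each replicate. At the stop codon peak of Tnfaip3 the nearest GGAC was 76 nt upstream of the summit in replicate 1 and 63 nt downstream in replicate 2, and the summits stood on either side of it. In Rel the nearest GGAC was 112 and 85 nt downstream.

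The genes without a peak did not lack GGAC. Relb, the transactivating partner of the non-canonical arm (chr7:19606217-19629438, − strand), had no peak, yet its transcript carries 20 GGAC, or 9.05 per kb, a density above that of 98.0% of protein-coding genes. Of these, 7 lay in the last exon of 725 nt and 2 within 200 nt of the stop codon. Nfkbie (chr17:45555703-45563169, + strand) carries 14, or 5.94 per kb, with 4 near its stop codon, as many as Tnfrsf1a. A GGAC within 200 nt of the stop codon is common, found in 75.9% of 21851 protein-coding genes. The lines below give, for each of these 2 genes, the GGAC followed by A, C or T nearest to the stop codon. The GGAC core shared with the sequences above, all but that of Rel, follows from this choice.
Relb (no peak), chr7:19606439-19606463 (− strand): atcctgaatcGGACAtctgcagcgc
Nfkbie (no peak), chr17:45562118-45562142 (+ strand): gctgcagttgGGACCcaagcaatgt
Rel, in contrast, had a peak in both replicates with 2.28 GGAC per kb, a density above that of 16.7% of genes. The input reads of Relb and Nfkbie were not analysed here, so a lack of methylation cannot be told apart from a lack of reads.

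Other genes of the pathway were read from 6 lists set by role, of 91 genes in all. These lists too were set with earlier results of these data known. An exonic summit was found in both replicates for 43 of the 91 (47.3%), beside the 30.9% of all protein-coding genes given above. The receptor adaptors and ubiquitin ligases had it in 10 of 13 genes and the kinases in 8 of 11. Other inhibitors had it in 10 of 17, ligands in 4 of 9, target genes in 5 of 15 and the rest of the TNF receptor family in 6 of 26. The genes' expression was not measured here, and the shares were not tested.

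**Figure D4:**
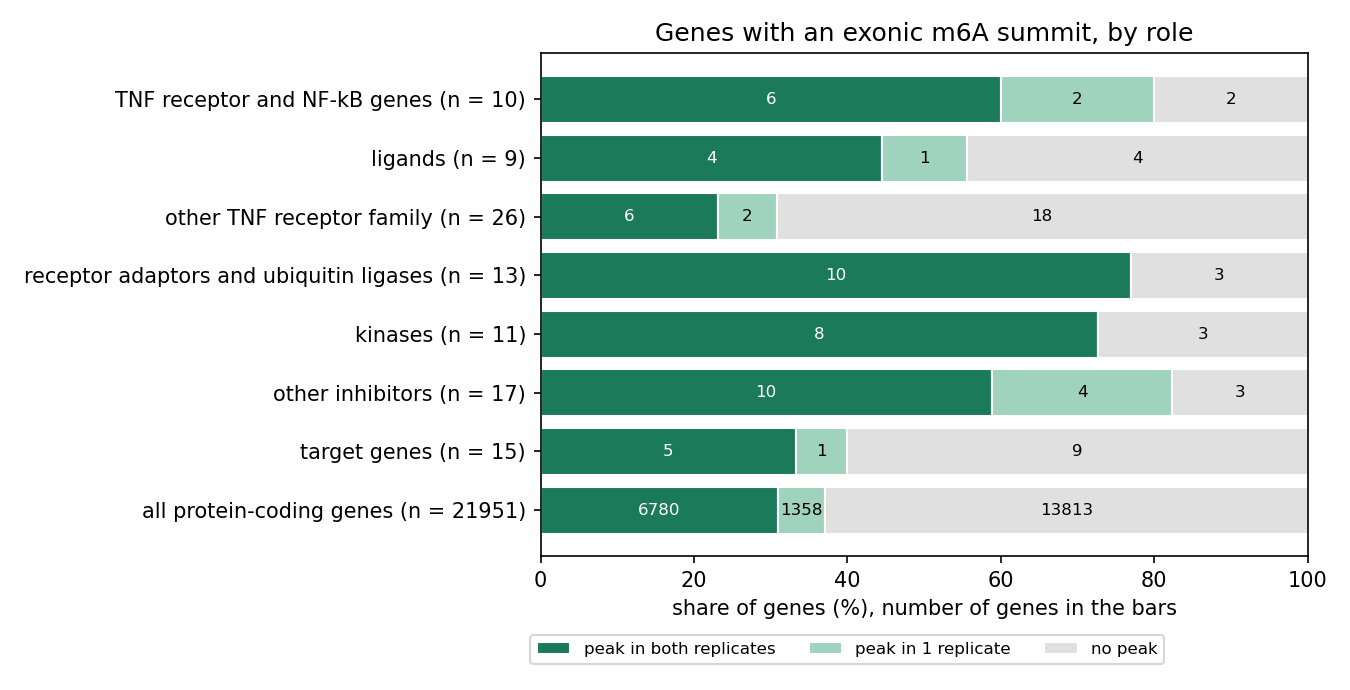
Share of genes (%) with an exonic m6A summit in both replicates (dark), in 1 (light) or in none (grey), for the 10 TNF receptor and NF-κB genes, the 6 lists of other pathway genes and all protein-coding genes, with gene numbers in the bars. Adaptors and kinases had the largest shares in both replicates, with 10 of 13 and 8 of 11 genes, and the other TNF receptors the smallest, with 6 of 26.

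The ligand Tnf itself, named for its place in the pathway after its values were seen, had a stop codon peak of 8.82 ± 1.68-fold enrichment (SD, n = 2) on 16 and 15 IP reads. Of the ligands the rule selected, Tnfsf14, which signals through the lymphotoxin β receptor, was enriched 11.6-fold and 10.1-fold, with 55 and 54 IP reads. Tnfsf10, the death ligand TRAIL, had 18.4-fold in replicate 1 and 7.95-fold in replicate 2 on 25 and 24 IP reads, over backgrounds of 0.47 and 2 control reads. Its IP reads thus nearly coincided and its fold enrichment did not. All 3 peaks lay at the stop codon.

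Among the other receptors, Ltbr, the lymphotoxin β receptor, had a stop codon peak enriched 6.42-fold and 8.74-fold, with 112 and 111 IP reads. Tnfrsf22, a decoy receptor for TRAIL, had 9.27 ± 0.386-fold enrichment (SD, n = 2) on 19 and 17 IP reads, for a peak of highest −log10 q at the stop codon in replicate 1 and in the 3′ UTR in replicate 2. Reads may have been divided between Tnfrsf22 and its similar neighbour Tnfrsf23, but this was not tested.

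Downstream of the receptors, Traf5, an adaptor of several TNF family receptors, had 4.99-fold and 8.45-fold enrichment at the stop codon, where a summit also lay in an exon of Gm26879 and the call is uncertain. Birc3, a ubiquitin ligase of the receptor complex, had 6.32-fold and 5.71-fold in its coding sequence. Traf1, Rnf31 and Rbck1 had no peak. Of the kinases, Map3k14, which drives the non-canonical arm, had 7.81-fold and 9.05-fold in the 3′ UTR on 30 and 37 IP reads, and Ikbke had 6.88-fold and 4.50-fold at the stop codon. Of the IκB kinase complex, named for its place in the pathway after its values were seen, Ikbkb had 2.28-fold and 2.14-fold at the stop codon, Ikbkg had 2.57-fold and 5.73-fold, the second on another transcript, and Chuk had no peak. The kinases Tbk1 and Map3k8 had none either.

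Among the other inhibitors, Rnf11, a partner of the enzyme that Tnfaip3 encodes, was enriched 7.61-fold and 6.82-fold at the stop codon, with 133 and 128 IP reads. Cyld, a deubiquitinase of the receptor complex, had 6.03-fold in the coding sequence in replicate 1 and 6.41-fold at the start codon in replicate 2 for its peak of highest −log10 q. Nfkbid, Tnip2 and Tax1bp1 had none. Of the target genes, the adhesion molecules Icam1 and Vcam1 had stop codon peaks of 10.1-fold and 9.05-fold, and of 7.28-fold and 7.16-fold. The chemokine and cytokine genes Ccl2, Ccl5, Cxcl1, Cxcl2, Cxcl10, Il1b and Il6, like Ptgs2 and Plau, had no peak in either replicate.

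A peak list can check the cell type only in part, since a peak needs methylation as well as expression. Of 8 stem and progenitor markers 5 had a peak in both replicates, though Kit had none, beside 3 of 6 erythroid, 2 of 5 hepatocyte (Apoa1 and Hnf4a) and 1 of 4 macrophage markers (Csf1r), where 30.9% of all protein-coding genes had one. The counts of so few markers do not tell the cell types apart. The part of other cell types in the peaks of the 10 genes was not tested. Over all peaks, the median number of IP reads at the summit was 57 in each replicate, and the smallest peaks rested on 4 and 6.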

How the data were processed

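The files hold 1 list of m6A peaks for each of 2 IP replicates. Per the labels and the study's methods, the authors placed reads with HISAT2 on GRCm38 (mm10) and called peaks in each replicate with MACS2 2.1.1.20160309 without a fragment model. The threshold and the control library are not given in the sources used here, and the smallest −log10 q was 1.30. The deposited fold enrichment is a ratio of IP signal to local background at the summit, beside a −log10 p-value, a −log10 q-value and a score that is 10 times the latter, cut to a whole number. These values were used as deposited by the authors, with no further normalization.

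Coordinates count from 1. Exons were those of the GENCODE M21 basic set on the same build, and positions refer to the transcript with the longest coding sequence. Peaks were shared at 1 bp of overlap. IP reads and background were computed from fold enrichment and p-value by the formulas of MACS2; a whole number of IP reads gave the deposited −log10 p-value to within 0.000342 for 100% of peaks, with control reads scaled by 0.874 in replicate 1 and IP reads by 0.952 in replicate 2. The step was tested on simulated data. Poisson intervals are exact, at 95%, and cover counting error only. Python 3.11.15, scipy 1.17.1 and pyfaidx 0.9.0.4 were used.

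The genes and lists were chosen with earlier results of these data known, and no p-value is given. Named beside the 10 genes were, for each list, the 2 genes with peaks in both replicates and the highest mean fold enrichment, taken at the peak of highest −log10 q, where that q-value measure was at least 5 in both. Other genes are named where counts are small. Cell type markers were a further list.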

Additional observations from a re-analysis of the deposited data

How the results depend on the processing

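Alternatives were a minimum −log10 q of 3 or 5, a minimum fold enrichment of 4, the comprehensive transcript set, any overlap of a peak with an exon, dropping summits that fall in exons of more than 1 gene, other windows and transcripts, and leaving out each replicate. Over the alternatives that keep both replicates, the number of the 10 genes with a peak in both, 6, ranged from 4 to 7. That of the 91 pathway genes, 43, ranged from 30 to 44. Leaving out replicate 1 gave 8 and 47, and leaving out replicate 2 gave 6 and 47, each counted from 1 list. With a minimum fold enrichment of 4, which removes the peaks of Nfkb1 and Rela, the mean of the replicate medians rose from 6.33 ± 0.647 (SD, n = 2) to 6.99, stop codon summits numbered 6 in place of 10, and 3702 protein-coding genes in place of 6780 had a peak in both replicates. With summits within 100 bp, 10 of 18 peaks were shared in place of 17, and the share of all peaks at that setting was not computed. Across the 11524 one-to-one pairs of the whole lists the median distance between summits was 16 nt. It was 143 nt in Tnfrsf1a, 139 nt at the stop codon of Tnfaip3 and 312 nt in Rela. The other pairs of the 10 genes had 4 to 56 nt. Within 100 nt of the stop codon lay 6 summits. Within 25 nt of GGAC lay 5 summits in place of 12. The shares of all placed summits in these narrower windows were not computed, so the lower counts cannot be set against a background. Without replicate 1 or replicate 2 the count at the stop codon was 5 and 5, and that near GGAC 7 and 5, each from 1 list in place of both. No paired analysis was possible because only the IP samples have values here. Depth limits Rel, Nfkbia, Nfkb2 and Tnfaip3, with at most 34 IP reads.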

Other observations

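Some peaks lay within these genes but with the summit outside their annotated exons. In Rela a peak in an intron was called in both replicates, chr19:5640863-5641112 with 3.22-fold enrichment in replicate 1 and chr19:5640870-5641113 with 3.02-fold in replicate 2. IP reads numbered 36 and 37, against 12 and 11 control reads, its summits were 43 nt apart, and 3 DRACH matches lay within 50 nt of each summit on the strand of Rela. Its fold enrichment was close to that of the exonic Rela peak, 2.75 and 3.34, on fewer reads. In Tnfrsf1b a peak was called in replicate 2 only, chr4:145229076-145229275 with 6.68-fold enrichment on 20 IP reads, which overlapped an exon in part and had its summit in an intron, with 0 GGAC and 2 DRACH matches within 50 nt. Within the span of Nfkb2 a replicate 1 peak, chr19:46305387-46305693 with 4.43-fold enrichment on 22 IP reads, had its summit in an exon of AC114539.1 and no counterpart in replicate 2.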
